A study of Mus musculus with 6 samples.

Results

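The matrix metalloproteinases Mmp2, Mmp3, Mmp9, Mmp10, Mmp13 and Mmp14 and their inhibitors Timp1, Timp2, Timp3 and Timp4 were examined on Affymetrix mouse M430 2.0 arrays. Members were the probe sets that the platform annotation gives to exactly 1 of these 10 genes, which are 23 of the 45037 probe sets other than the array maker's controls. They represent 10 of the 18194 genes measured. All cells were immortalized mouse embryonic fibroblasts of mixed background strain that lack Kdm5a, which encodes a demethylase of lysine 4 on histone H3. They carried reintroduced KDM5A-H483A, a mutant form of the protein, reintroduced wild-type KDM5A, or an empty vector (EV), and were grown in medium with 10% fetal bovine serum until subconfluent. Each group had 2 arrays. The labels name them biological replicates and say nothing of separate cultures, so the p-values rest on the spread between these samples, which may be technical. The sources used here do not give the vector's promoter or say whether the cells were clones or pools.

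Matrix metalloproteinases are zinc-dependent enzymes that are made as inactive precursors and cut collagens and other components of the extracellular matrix. TIMPs bind the active site of the mature enzymes and block them. On the surface of fibroblasts, MMP14 and TIMP2 together hold the precursor of MMP2, and a second MMP14 molecule that is free of TIMP2 then cleaves it, so that TIMP2 takes part in the activation of an enzyme that it also inhibits. Many fibroblast metalloproteinases are kept low at rest and induced by cytokines, growth factors or phorbol esters through AP-1, whereas MMP2, MMP14 and TIMP2 are commonly expressed without a stimulus.

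Over all genes, the arrays support only coarse comparisons. Values are log2 RMA intensities, in which 1 unit is a doubling, and 95% confidence intervals reached a median of 0.37 above and below the estimate. Replicate 1 and replicate 2 lay at least 0.5 log2 units apart for 14.9% of genes with KDM5A-H483A, 11.2% with wild-type KDM5A and 3.79% with empty vector. Kdm5a lay between 5.83 and 6.11 on all 6 arrays in its brightest probe set (1452360_a_at). The sources used here do not place that probe set relative to the deletion or the reintroduced KDM5A, so it checks neither. Of 10 fibroblast markers, 8 lay above the median gene level of 5.52 and Fap lay lowest, at 3.21. Of markers of other cell types, 2 of 8 for macrophages, 2 of 6 for epithelium, 1 of 5 for endothelium and 2 of 5 for muscle lay above that level. The summed linear signal of the 10 fibroblast markers was between 23867 and 27818 with KDM5A-H483A, between 20013 and 28522 with wild-type KDM5A and between 23835 and 25471 with empty vector. For the macrophage markers the sums were between 252.9 and 253.3, between 226.1 and 227.3 and between 238.2 and 239.9 in the same order of groups. With 2 of these 8 markers above the median gene level, whether the sums reflect macrophages was not tested. For epithelium and for muscle the sums overlapped between all groups. For endothelium they were between 135.9 and 151.8, between 150.8 and 157.9 and between 141.9 and 144.6, so KDM5A-H483A overlapped both other groups.

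Of the 10 genes, Timp2 was the one whose arrays separated both KDM5A forms from empty vector. All 4 arrays with a KDM5A form stood above both empty vector arrays for Timp2 and for 0 of the other members, and over all genes 4.95% were higher in this way and 5.15% lower. Together these shares are close to 1 gene in 10, so 1 of the 10 members is near the share over all genes. In bulk RNA such as this, fewer cells of a type and less RNA per cell cannot be told apart. The remaining differences were small. In the brightest probe set of every other member except Timp1, they were no larger than the widest gap between the 2 arrays of 1 group. Limma called 0 of the 10 genes and 0 of the 23 probe sets in each of the 3 comparisons at an adjusted p of 0.05, where 0% of all genes and 0% of all probe sets were called. At an unadjusted p under 0.05, 1 of the 10 genes stood out for KDM5A-H483A against empty vector (1.65% of all genes), 0 for wild-type KDM5A against it (2.52%) and 0 for the mutant against the wild-type form (3.81%).

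**Figure D1:**
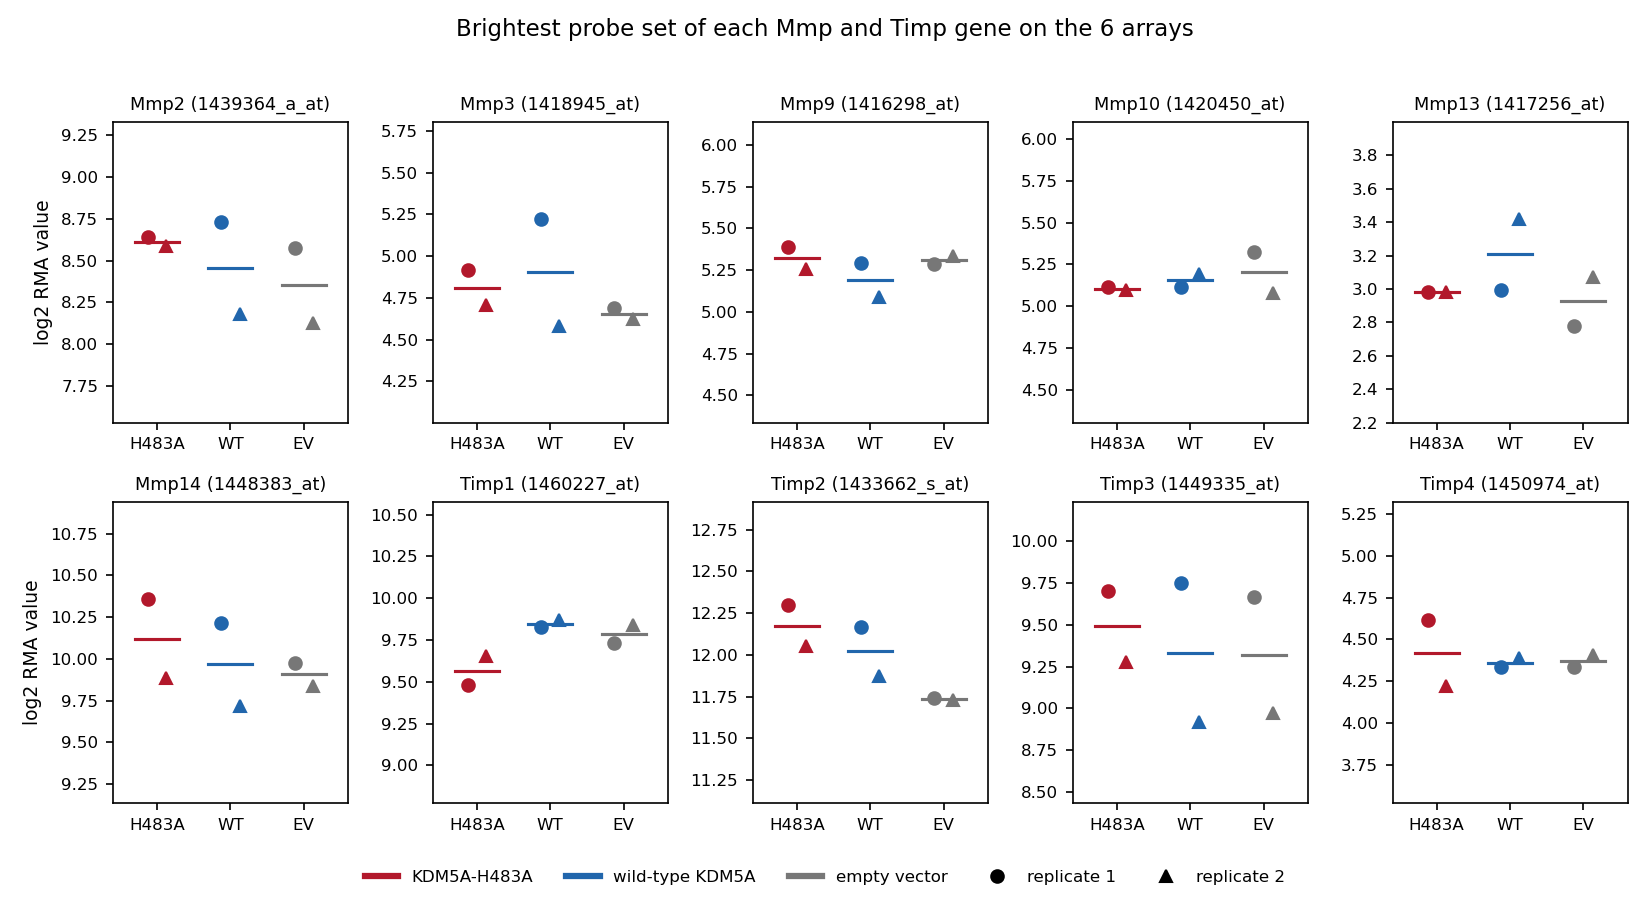
The log2 RMA value of the brightest probe set of each member gene on the 6 arrays, with KDM5A-H483A (H483A), wild-type KDM5A (WT) and empty vector (EV) from left to right. Circles are replicate 1, triangles replicate 2 and bars the group mean, and each axis spans the same number of log2 units. Timp2 has all 4 KDM5A arrays above both empty vector arrays, while the 2 arrays of a group lie far apart for Timp3, from 9.75 to 8.92 with wild-type KDM5A.

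Timp2, a secreted inhibitor that also serves as the adaptor for MMP2 activation, stood at 12.30 and 12.05 with KDM5A-H483A, at 12.17 and 11.88 with wild-type KDM5A and at 11.74 and 11.73 with empty vector (probe set 1433662_s_at). The empty vector arrays were nearly level, and the lowest KDM5A array was 11.88. With KDM5A-H483A, Timp2 was 1.36-fold higher than with empty vector, which is 0.44 log2 units (95% CI 0.07 to 0.81, SE 0.16, unadjusted p = 0.0279, limma adjusted p = 0.999). With wild-type KDM5A the ratio to empty vector was 1.22-fold (0.29 on the log2 scale, 95% CI -0.09 to 0.66, unadjusted p = 0.113, limma adjusted p = 1). These comparisons share the empty vector arrays. The difference between the KDM5A forms, 0.15 with a 95% CI of -0.22 to 0.53, did not pass the threshold, and the arrays of these groups overlapped. None of these differences passed after adjustment, and the unadjusted p for KDM5A-H483A against empty vector lay between 0.0165 and 0.130 under the alternatives. Against empty vector, leaving out 1 array at a time gave values between 0.32 and 0.56 for KDM5A-H483A and between 0.14 and 0.43 for wild-type KDM5A. The lowest, 0.14, came without replicate 1 of wild-type KDM5A, and the highest, 0.43, without replicate 2.

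Timp2 had 6 probe sets, of which 5 were bright and stood higher with both forms. Probe set 1454677_at stood at 11.61 and 11.43 with KDM5A-H483A, at 11.61 and 11.39 with wild-type KDM5A and at 11.24 and 11.20 with empty vector. In probe set 1460287_at the values were 11.01 and 11.30 with KDM5A-H483A, 10.92 and 10.92 for wild-type KDM5A, and 10.73 and 10.66 with empty vector. For probe set 1450040_at they were 10.80 and 10.56 with KDM5A-H483A, 10.79 and 10.59 for wild-type KDM5A, and 10.30 and 10.33 with empty vector. In each of these, as in the brightest, all 4 KDM5A arrays stood above both empty vector arrays, so that this held for 4 of the 6 Timp2 probe sets, against 2 of the other 17 member probe sets and 4.47% of all probe sets. The fifth, 1420924_at, had the same direction with a wider spread, at 9.05 and 8.41 with KDM5A-H483A, 9.02 and 8.56 for wild-type KDM5A, and 8.09 and 8.44 with empty vector. Probe set 1437081_at was weaker and had no order by group, at 6.0 and 5.24 with KDM5A-H483A, 5.16 and 5.61 for wild-type KDM5A, and 6.01 and 5.44 with empty vector, and the annotation lists no accession for it. Across the 6 probe sets, log2 fold changes against empty vector were between -0.11 and 0.47 for KDM5A-H483A and between -0.34 and 0.53 for wild-type KDM5A. Probe sets of 1 gene measure the same RNA on the same arrays, and 3 of these share the accession M93954 and 2 the accession BF168458, so they are not independent replicates. The suffix s of the brightest probe set marks probes that can match more than 1 transcript.

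**Figure D2:**
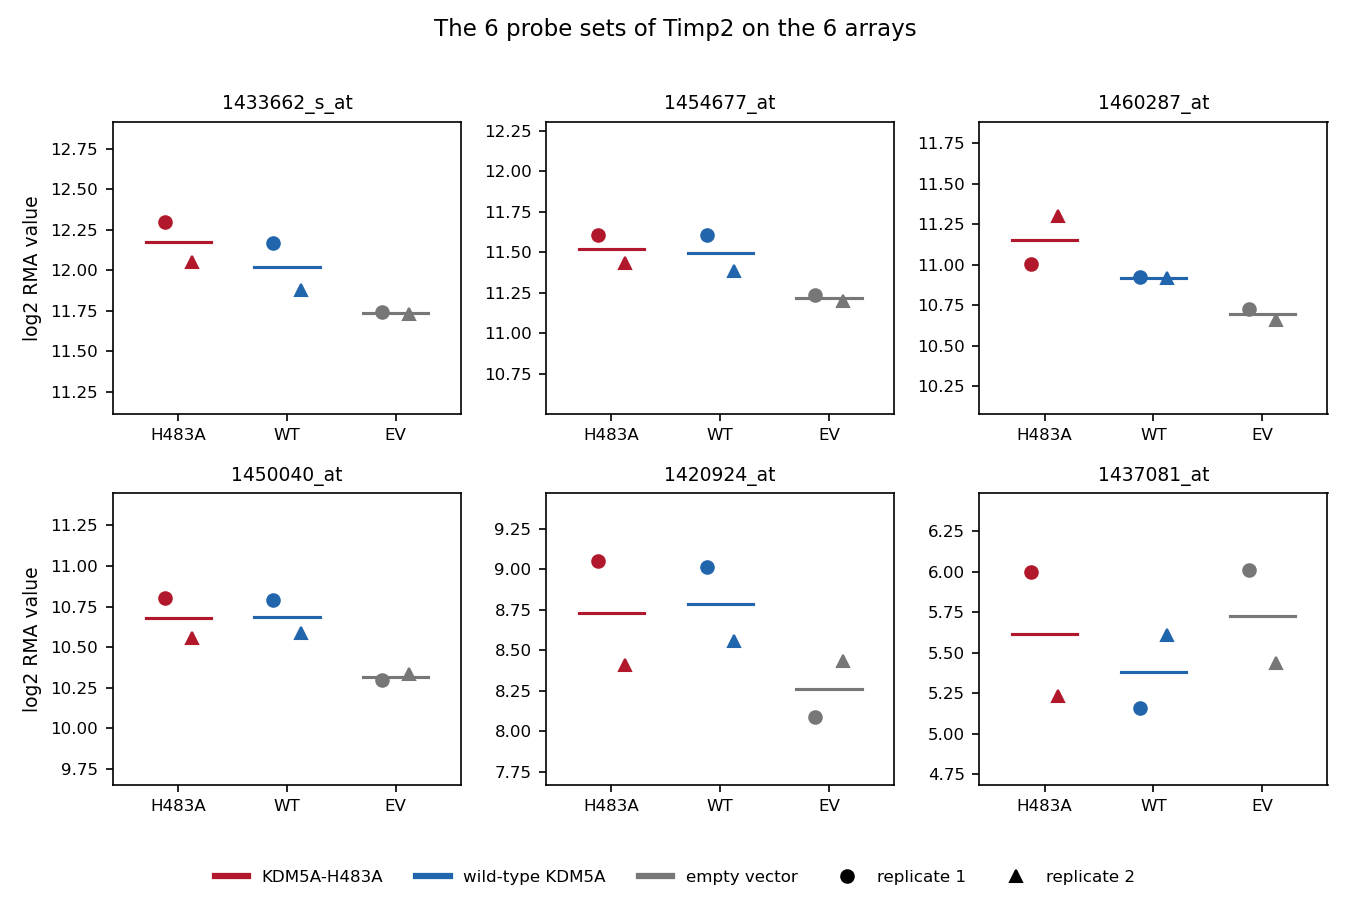
Log2 RMA values of the 6 Timp2 probe sets on each array, brightest first, with KDM5A-H483A, wild-type KDM5A and empty vector from left to right, circles for replicate 1, triangles for replicate 2 and bars for group means. The KDM5A arrays lie above the empty vector arrays in the first 4 panels, the groups overlap for 1 array in the fifth, and the weakest probe set shows no such order.

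Because Timp2 carried the clearest separation, its promoter is shown, from RefSeq on GRCm38.p6, chr11:118355362-118355661, minus strand, covering 250 bases before and 50 bases from the annotated start. Capitals mark CG dinucleotides.
Timp2: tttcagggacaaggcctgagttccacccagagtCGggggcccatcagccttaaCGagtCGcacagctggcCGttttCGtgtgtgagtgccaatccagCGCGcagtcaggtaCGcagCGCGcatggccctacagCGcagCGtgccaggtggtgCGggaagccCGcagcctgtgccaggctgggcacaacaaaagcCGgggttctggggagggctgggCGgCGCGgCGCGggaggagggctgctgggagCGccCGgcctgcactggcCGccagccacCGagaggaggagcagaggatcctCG
It holds 25 CG dinucleotides, a count at or above that of 83.1% of all 32851 promoter windows of 300 bases, whose median is 7. The Timp3 window holds 24, those of Mmp14 and Timp1 hold 10 and 8, those of Timp4 and Mmp10 hold 2 each, and those of Mmp3 and Mmp13 hold 1 each. In the brightest probe set, Timp2 had arrays apart from empty vector and Timp3 had arrays that overlapped. Whether the CG count goes with such differences was not tested.

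Timp1, a secreted inhibitor of most soluble metalloproteinases and a gene induced by serum and cytokines, stood lower in KDM5A-H483A cells, without passing the test. Its values were 9.48 and 9.65 with KDM5A-H483A, 9.82 and 9.87 for wild-type KDM5A and 9.73 and 9.84 with empty vector in its only probe set (1460227_at). Both KDM5A-H483A arrays were below all 4 others, and wild-type KDM5A overlapped empty vector. The log2 fold change of KDM5A-H483A was -0.28 against wild-type KDM5A (1.21-fold lower, 95% CI -0.59 to 0.03, SE 0.13, unadjusted p = 0.0676, limma adjusted p = 0.928). Against empty vector it was -0.22 (1.16-fold lower, 95% CI -0.53 to 0.09, limma adjusted p = 0.999). Wild-type KDM5A against empty vector gave 0.06 with a 95% CI of -0.25 to 0.37. None of the 3 differences passed the threshold.

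Timp3 encodes an inhibitor that stays bound to the extracellular matrix and also blocks several ADAM and ADAMTS proteases. Its values lay far apart within groups. Probe set 1449335_at stood at 9.71 and 9.28 with KDM5A-H483A, at 9.75 and 8.92 with wild-type KDM5A and at 9.67 and 8.98 with empty vector. Probe set 1419089_at was alike, with 9.62 and 9.27 for KDM5A-H483A, 9.50 and 8.88 for wild-type KDM5A, and 9.54 and 8.84 for empty vector. In both, replicate 1 was above replicate 2 in each group and the groups overlapped. Probe set 1449334_at stood at 8.38 and 7.76 with KDM5A-H483A, at 9.03 and 8.02 with wild-type KDM5A and at 8.08 and 7.83 with empty vector. Probe set 1419088_at stood at 7.40 and 6.74 with KDM5A-H483A, at 8.32 and 7.14 with wild-type KDM5A and at 7.11 and 7.12 with empty vector. In the 2 dimmer probe sets replicate 1 of wild-type KDM5A was highest, at 9.03 against 8.38 on the next array and at 8.32 against 7.40, while in the brightest it was highest by little, at 9.75 against 9.71. Replicate 1 was above replicate 2 in each group in 1449334_at as well, and in 1419088_at with both KDM5A forms but not with empty vector.

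The Timp3 fold changes differed between the probe sets. For wild-type KDM5A against empty vector, the log2 fold change was 0.01 (95% CI -0.82 to 0.84, limma adjusted p = 1) in the brightest probe set and 0.61 (95% CI -0.32 to 1.54, limma adjusted p = 1) in the dimmest. KDM5A-H483A against wild-type KDM5A gave 0.16 (95% CI -0.67 to 0.99) and -0.66 (95% CI -1.59 to 0.28) in the same probe sets, and KDM5A-H483A against empty vector gave 0.17 and -0.05. Without replicate 1 of wild-type KDM5A, the brightest probe set gave -0.40 for wild-type KDM5A against empty vector, the opposite sign. All 4 probe sets carry the accession BI111620, and the sources used here do not give their positions along the transcript.

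**Figure D3:**
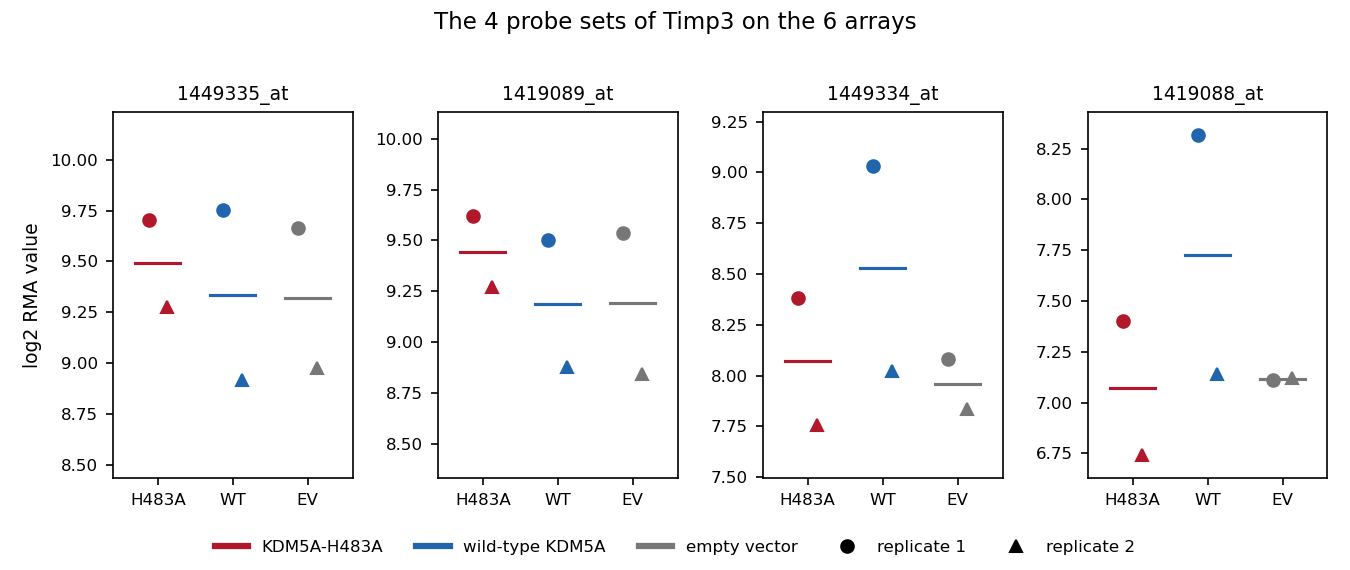
Log2 RMA values of the 4 Timp3 probe sets on each array, brightest first, with KDM5A-H483A, wild-type KDM5A and empty vector from left to right, circles for replicate 1, triangles for replicate 2 and bars for group means. Replicate 1 exceeds replicate 2 in every group except empty vector in the dimmest probe set, and replicate 1 of wild-type KDM5A is highest in all panels but the second, at 9.75, 9.03 and 8.32.

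Timp4, whose protein is known mainly from heart, brain and fat, gave weak signals. Its brighter probe set (1450974_at) lay between 4.22 and 4.62 on all arrays, with log2 fold changes against empty vector of 0.05 (95% CI -0.33 to 0.44) for KDM5A-H483A and -0.01 (95% CI -0.39 to 0.38) for wild-type KDM5A. The dimmer (1423405_at) lay between 2.81 and 3.07, at the 9.56th percentile of all probe sets. The files hold no detection calls, so whether such signals lie above background is not known. In the dimmer probe set all 4 KDM5A arrays stood above both empty vector arrays, by a log2 difference of 0.11 for KDM5A-H483A and 0.16 for wild-type KDM5A.

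Mmp2, the gelatinase that fibroblasts secrete as a precursor, stood at 8.64 and 8.59 with KDM5A-H483A, at 8.73 and 8.18 with wild-type KDM5A and at 8.58 and 8.13 with empty vector (1439364_a_at). Both KDM5A-H483A arrays were close to the higher array of each other group. The log2 fold change against empty vector for KDM5A-H483A was 0.26 (95% CI -0.29 to 0.81, limma adjusted p = 0.999), with arrays just apart, and it was 0.035 without replicate 2 of empty vector and 0.49 without replicate 1. For wild-type KDM5A it was 0.10 (95% CI -0.45 to 0.66, limma adjusted p = 1), with arrays that overlapped, and it was -0.12 without replicate 2 of empty vector and -0.17 without replicate 1 of wild-type KDM5A. The second probe set (1416136_at), with 7.94 and 7.62 for KDM5A-H483A, 7.89 and 7.15 for wild-type KDM5A, and 7.66 and 7.27 for empty vector, gave 0.31 and 0.05.

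Mmp14 encodes the membrane-anchored collagenase that activates MMP2. Its brightest probe set (1448383_at) stood at 10.36 and 9.89 with KDM5A-H483A, at 10.22 and 9.72 with wild-type KDM5A and at 9.98 and 9.84 with empty vector. Each KDM5A group had 1 array above both empty vector arrays and 1 array below the higher of them. Log2 fold changes against empty vector were 0.21 (95% CI -0.33 to 0.76) for KDM5A-H483A and 0.06 (95% CI -0.48 to 0.60) for wild-type KDM5A. A second probe set with the same accession (1416572_at) stood at 6.37 and 6.47 with KDM5A-H483A, at 6.45 and 6.06 with wild-type KDM5A and at 6.19 and 6.03 with empty vector, a log2 fold change of 0.32 (95% CI -0.06 to 0.70) for KDM5A-H483A. The third (1440920_at) had the opposite sign, at -0.15 for KDM5A-H483A and -0.10 for wild-type KDM5A. Set side by side as differences from empty vector, the 3 genes of the activation complex gave 0.44 for Timp2, 0.26 for Mmp2 and 0.21 for Mmp14 with KDM5A-H483A, and 0.29, 0.10 and 0.06 with wild-type KDM5A. None of these differences passed the threshold, and all rest on the same empty vector arrays. The intervals of Mmp2 and Mmp14 crossed 0 for both forms, and whether the 3 genes move together was not tested.

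Mmp9, the gelatinase best known from leukocytes and bone-resorbing cells, was close to level. It stood at 5.39 and 5.25 with KDM5A-H483A, at 5.29 and 5.09 with wild-type KDM5A and at 5.28 and 5.33 with empty vector (1416298_at). The groups overlapped. KDM5A-H483A differed from empty vector by 0.01 on the log2 scale (95% CI -0.31 to 0.33), and wild-type KDM5A by -0.12 (95% CI -0.44 to 0.20). In linear terms the interval for KDM5A-H483A reached from 0.81-fold to 1.26-fold. A second probe set (1448291_at) lay between 3.23 and 3.40, at the 19.5th percentile of all probe sets, and there all 4 KDM5A arrays stood above both empty vector arrays by small margins, with log2 differences of 0.086 for KDM5A-H483A and 0.037 for wild-type KDM5A. Whether that signal lies above background is not known.

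Mmp3 and Mmp10 encode stromelysins, which cut proteoglycans and other matrix proteins and activate further metalloproteinases, and Mmp13 encodes the main collagenase of rodents. All 3 genes lie on chromosome 9. Their promoters are shown because they share motifs that the choice of members did not use: the AP-1 site TGAGTCA, searched on both strands (TGACTCA on the other), and TATAAA, likewise searched on both strands (TTTATA on the other). The windows, from RefSeq on GRCm38.p6, plus strand, are chr9:7445572-7445871 for Mmp3, chr9:7502092-7502391 for Mmp10 and chr9:7272264-7272563 for Mmp13, each covering 250 bases before and 50 bases from the annotated start. Capitals mark the AP-1 and TATAAA matches, which do not overlap.
Mmp3: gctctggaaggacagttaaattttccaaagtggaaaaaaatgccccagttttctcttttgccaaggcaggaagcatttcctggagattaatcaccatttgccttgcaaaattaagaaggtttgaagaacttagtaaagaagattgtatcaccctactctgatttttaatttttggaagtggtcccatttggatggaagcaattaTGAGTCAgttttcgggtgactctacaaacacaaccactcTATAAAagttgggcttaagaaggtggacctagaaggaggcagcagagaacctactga
Mmp10: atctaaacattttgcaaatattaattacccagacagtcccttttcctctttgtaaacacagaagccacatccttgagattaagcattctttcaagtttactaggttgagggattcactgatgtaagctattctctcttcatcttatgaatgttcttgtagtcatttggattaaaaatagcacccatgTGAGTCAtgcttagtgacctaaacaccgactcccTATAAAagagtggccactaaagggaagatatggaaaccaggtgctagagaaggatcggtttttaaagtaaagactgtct
Mmp13: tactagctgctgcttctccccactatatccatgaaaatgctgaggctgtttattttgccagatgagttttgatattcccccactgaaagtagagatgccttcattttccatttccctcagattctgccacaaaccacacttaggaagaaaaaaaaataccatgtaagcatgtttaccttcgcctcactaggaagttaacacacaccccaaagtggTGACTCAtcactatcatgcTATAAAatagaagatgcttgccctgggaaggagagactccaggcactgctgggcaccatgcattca
Of the 8 members with a promoter in the RefSeq table, these 3 held the AP-1 letters and the same 3 held TATAAA, where 5.20% and 13.6% of all promoter windows did. The AP-1 match began 46 bases before the annotated start in Mmp3, 63 bases before it in Mmp10 and 35 bases before it in Mmp13. Mmp2 and Mmp9 have no entry in that table.

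These 3 genes gave weak signals and did not move together. Mmp3 (1418945_at) stood at 4.92 and 4.71 with KDM5A-H483A, at 5.22 and 4.58 with wild-type KDM5A and at 4.69 and 4.62 with empty vector. Its wild-type KDM5A arrays held both the highest and the lowest of the 6 values. The log2 fold change against empty vector for KDM5A-H483A was 0.16 (95% CI -0.37 to 0.68, limma adjusted p = 0.999). That for wild-type KDM5A was 0.25 (95% CI -0.28 to 0.78, limma adjusted p = 1), and it was -0.07 without replicate 1 of that group. Mmp10 (1420450_at) lay between 5.08 and 5.32 on all arrays, with differences from empty vector of -0.10 (95% CI -0.42 to 0.22) and -0.05 (95% CI -0.37 to 0.27) for the same forms. Mmp13 (1417256_at) stood at 2.98 and 2.98 with KDM5A-H483A, at 2.99 and 3.42 with wild-type KDM5A and at 2.78 and 3.07 with empty vector. Its mean lay at the 12.6th percentile of all probe sets, and wild-type KDM5A differed from empty vector by 0.28 on the log2 scale (95% CI -0.16 to 0.73, limma adjusted p = 1), with arrays that overlapped. That difference was 0.070 without replicate 2 of wild-type KDM5A and 0.50 without replicate 1.

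**Figure D4:**
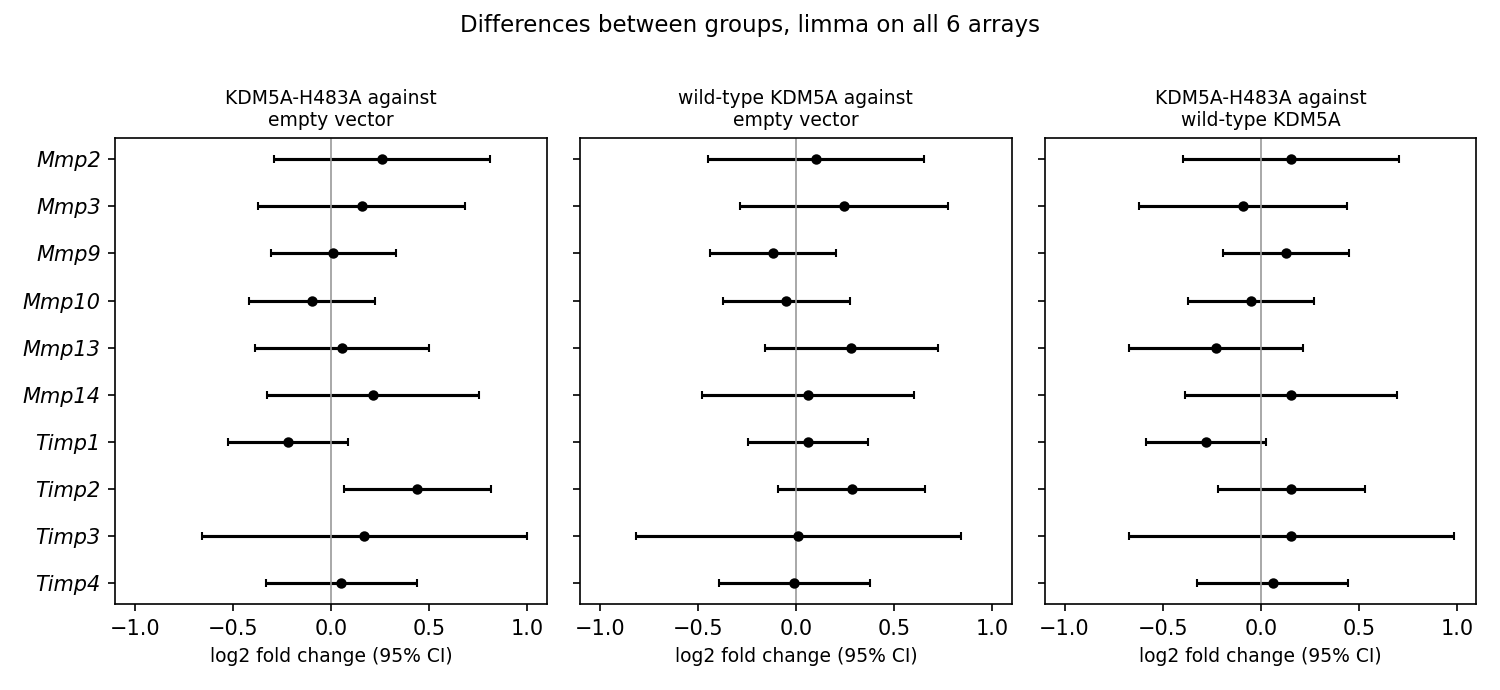
Log2 fold change of each member gene in 3 panels, each form against empty vector (the mutant on the left, wild-type KDM5A in the middle) and the mutant against the wild-type form on the right. Points are estimates from the brightest probe set and bars are 95% confidence intervals from limma over all 6 arrays. The interval of Timp2 for KDM5A-H483A against empty vector, 0.07 to 0.81, does not cross 0, and the intervals of the other members do in each panel.

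Counted over the 10 genes, KDM5A-H483A stood above empty vector in 8 and below it in 2, with a median log2 fold change of 0.11, against 0.00 over all genes, of which 50.3% were above 0. Both arrays of 1 group lay beyond both of the other for 4 members in that comparison, higher for Mmp2, Mmp3 and Timp2 and lower for Timp1, where 13.6% of all genes were higher and 14.6% lower in this way. Wild-type KDM5A stood above empty vector in 7 of 10 (median 0.06, against 51.3% of all genes above 0 and a median of 0.00), and 1 member, Timp2, had arrays apart and higher, where 16.5% of all genes did. Between KDM5A-H483A and wild-type KDM5A, 6 of 10 members were above 0 (median 0.10, against 48.4% of all genes and a median of -0.01). Mmp10, Mmp13 and Timp1 had arrays apart and lower, where 16.1% of all genes did, and 0 members had arrays apart and higher, where 14.9% did. The nearest arrays of KDM5A-H483A and wild-type KDM5A were almost level for Mmp10, at 5.113 and 5.117, and for Mmp13, at 2.981 and 2.995.

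Genes of the matrix that these enzymes act on also differed between replicates. Among 17 such genes, including collagens, fibronectin and laminins, replicate 1 was above replicate 2 in 16 with KDM5A-H483A (median difference 0.75), in 16 with wild-type KDM5A (0.64) and in 10 with empty vector (0.08). Among the 10 members, it was above in 8 with KDM5A-H483A (median 0.17), in 6 with wild-type KDM5A (0.25) and in 6 with empty vector (0.04). Of all genes, 50.2%, 52.5% and 50.3% had replicate 1 above replicate 2 in the same order of groups. For Timp2 the difference was 0.25 with KDM5A-H483A, 0.29 with wild-type KDM5A and 0.02 with empty vector, and for Timp3 it was 0.43, 0.83 and 0.69. The part of this gap in the differences between groups was not tested beyond the fit with the replicate number as a block.

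**Figure D5:**
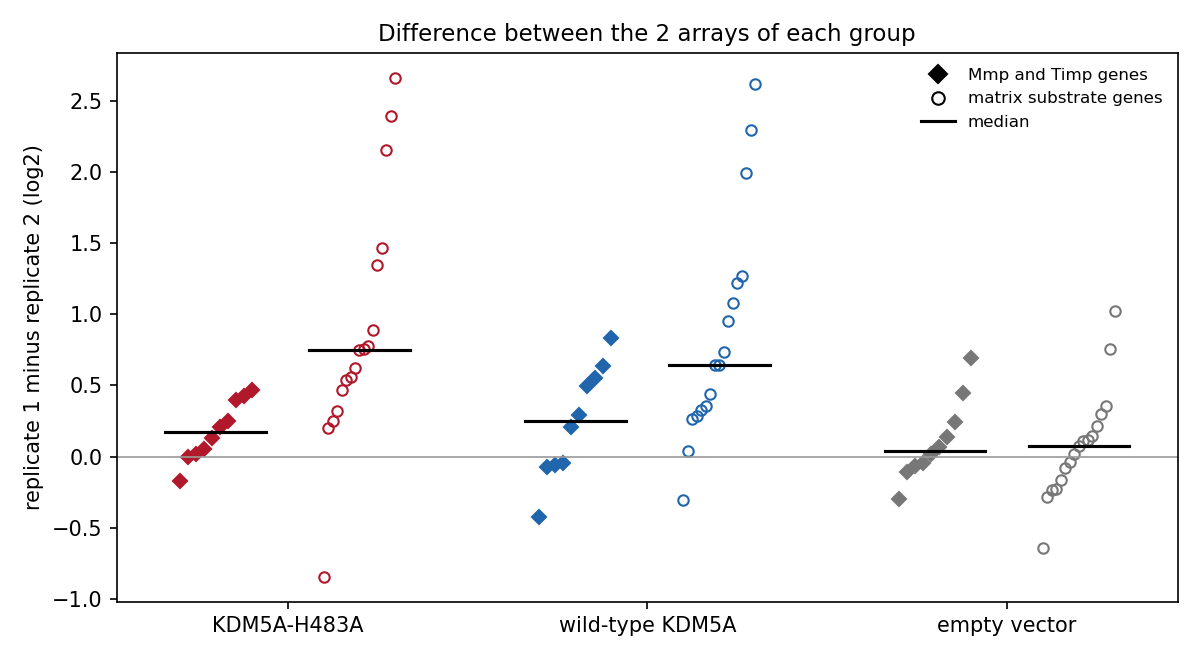
Replicate 1 minus replicate 2 on the log2 scale for the 10 member genes (filled diamonds) and 17 matrix substrate genes (open circles) in KDM5A-H483A, wild-type KDM5A and empty vector cells, sorted by size within each set, with black bars at the medians. The substrate medians are 0.75, 0.64 and 0.08 from left to right, and the member medians are 0.17, 0.25 and 0.04.

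Other genes of matrix proteolysis gave 0 calls by limma in any comparison. Of 12 further Mmp genes measured, 0 were higher and 1 was lower at an unadjusted p under 0.05 with KDM5A-H483A and likewise with wild-type KDM5A, each against empty vector. In either direction, 1.65% and 2.52% of all genes passed in these comparisons. The lowest p belonged to Mmp17, a lipid-anchored metalloproteinase, at 4.24 and 4.39 with wild-type KDM5A against 4.89 and 4.75 with empty vector (log2 fold change -0.51, 95% CI -0.83 to -0.18, limma adjusted p = 1). With KDM5A-H483A, Mmp17 was at 4.55 and 4.39 (-0.35 against empty vector, 95% CI -0.68 to -0.03, limma adjusted p = 0.999). Next was Mmp11, a stromelysin of remodelling stroma, at 6.79 and 6.42 with wild-type KDM5A against 6.09 and 6.30 with empty vector (0.41, 95% CI -0.02 to 0.83). Of 16 ADAM and ADAMTS genes, Adam12, a membrane protease, was at 6.73 and 6.98 with wild-type KDM5A against 7.25 and 7.35 with empty vector (-0.45, 95% CI -0.78 to -0.11, limma adjusted p = 1). With KDM5A-H483A, Adam12 was at 6.90 and 6.82 (-0.45 against empty vector, 95% CI -0.78 to -0.11, limma adjusted p = 0.999). Adamts12 was at 7.54 and 6.58 with KDM5A-H483A against 7.64 and 7.56 with empty vector (-0.54, 95% CI -1.26 to 0.19). Adamts12 was thus close to empty vector on 1 of the 2 mutant arrays. For Mmp17, Adam12 and Adamts12, all 4 KDM5A arrays lay below both empty vector arrays, as in 5.15% of all genes.

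Among 15 activators, surface partners and regulators of metalloproteinases, 11 were below 0 for KDM5A-H483A against empty vector, as were 9050 of all 18194 genes. Of the 15, the lowest p belonged to Plau, the urokinase gene, and Furin, the convertase that activates MMP14. Plau was at 4.04 and 3.70 with KDM5A-H483A, compared with 4.32 and 4.26 with wild-type KDM5A (-0.42, 95% CI -0.80 to -0.04, limma adjusted p = 0.928). Furin was at 7.31 and 7.33 with KDM5A-H483A, compared with 7.49 and 7.61 with empty vector (-0.23, 95% CI -0.52 to 0.05). Among 14 transcription factors known to act on Mmp promoters, Jun, a subunit of AP-1, was at 8.12 and 8.70 with KDM5A-H483A against 8.0 and 7.70 with empty vector (0.56, 95% CI 0.01 to 1.11, limma adjusted p = 0.999), and the ETS factor Etv5 at 6.46 and 7.03 against 6.39 and 6.06 (0.52, 95% CI -0.003 to 1.03). Of the 14 factors, 10 were above 0 in this comparison. Fos, another AP-1 subunit, was below 0, at 9.51 and 6.41 with KDM5A-H483A against 8.82 and 7.52 with empty vector (-0.21, 95% CI -3.08 to 2.66). In the same comparison Mmp3, Mmp10 and Mmp13, whose promoters hold the AP-1 letters, had log2 fold changes of 0.16, -0.10 and 0.05. Of the 17 substrate genes, Tnc, the gene of tenascin C, was at 9.0 and 8.56 with wild-type KDM5A against 9.33 and 9.22 with empty vector (-0.50, 95% CI -0.94 to -0.05, limma adjusted p = 1). With KDM5A-H483A, Tnc was at 9.13 and 8.88 (-0.27 against empty vector, 95% CI -0.72 to 0.17), also below both empty vector arrays. The collagen gene Col5a1 was at 10.55 and 10.02 with KDM5A-H483A against 10.82 and 10.90 with empty vector (-0.57, 95% CI -1.20 to 0.05).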

How the data were processed

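The deposited table held log2 values of 45101 probe sets on 6 arrays. Per the submitters' processing notes the authors used RMA, whose version the sources used here do not give. This method removes background, forces the arrays to 1 distribution by quantile normalization and summarises probes, so a shift in RNA content per cell is lost. Array medians lay between 4.55 and 4.60, and no rescaling was done. Precision is limited by the number of arrays.

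The platform annotation paired 34958 probe sets with 1 gene, 932 with several and 9211 with none. Symbols were updated through Entrez IDs to RefSeq (34754 matched). Each gene was represented by its brightest probe set without the suffix _x_at, which gave 18194 genes. Limma (version 3.58.1, R 4.3.3) was fitted with 1 mean per group over all 6 arrays, with 3 residual and 3.42 prior degrees of freedom, two-sided, and Benjamini-Hochberg adjustment over all genes at 0.05. The same fit over all 45037 probe sets other than the 64 controls gave values for further probe sets. It was tested on simulated data.

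The members, gene lists and tests were chosen with earlier results of these data known. Named genes were the 10 members, the 2 genes with the smallest unadjusted p of each further list, and the 3 genes most like each of the 3 members with the widest range. Fos, Mmp7, Adamts7, Kdm5a and the marker Fap are also named, outside this rule. The Timp2 promoter was added after its values were seen. Proteins were not printed.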

Additional observations from a re-analysis of the deposited data

How the results depend on the processing

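Limma called 0 member genes and 0 of all genes in each of the 3 comparisons under every alternative run, including each fit without 1 array, in which the lone array of a group is assumed to vary like the others. It also called 0 member probe sets, for which the alternatives on the choice of probe set were not run. Of 465 log2 fold changes of member genes recomputed under alternatives, 431 kept their sign and 34 reversed, all of them not past the threshold before or after. Much of that agreement was fixed in advance. The replicate block, the trend and robust prior, array weights and the filter on dim genes left the fold changes as they were. So did testing all probe sets and leaving out arrays of the group not compared. Timp1 has 1 probe set, so the choice of probe set could not move it. The 12 of 30 values with no reversal included Timp2 and Timp1 against empty vector for both KDM5A forms and Timp1 between the forms. The fit with the replicate number as a block also called 0 genes, with Timp2 at an unadjusted p of 0.0165 for KDM5A-H483A against empty vector (limma adjusted p = 0.996). That p was above 0.05 after repeated quantile normalization (0.0871), with a trend and robust prior (0.0594), with the most variable probe set (0.130) and without replicate 1 of KDM5A-H483A (0.130) or replicate 1 (0.0924) or 2 (0.101) of empty vector. Deviations of replicate 1 from the group mean correlated across genes at 0.53 between the KDM5A forms, 0.02 between KDM5A-H483A and empty vector and 0.31 between wild-type KDM5A and empty vector, and the labels do not say that a number marks a shared batch. Taking the mean of a gene's probe sets reversed Timp4 for wild-type KDM5A against empty vector (0.075) and Timp3 between the KDM5A forms (-0.18). Taking the most variable probe set reversed Timp3 for KDM5A-H483A against empty vector (-0.047) and, between the forms, Timp2 (-0.058) and Timp3 (-0.66). Repeated quantile normalization reversed Timp3 (-0.049) and Timp4 (0.020) for wild-type KDM5A against empty vector, and median centring reversed Timp4 (0.020).

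Leaving out 1 array at a time gave these ranges where a sign reversed. For KDM5A-H483A against empty vector they were -0.054 to 0.079 for Mmp9, -0.22 to 0.025 for Mmp10, -0.093 to 0.20 for Mmp13, -0.019 to 0.45 for Mmp14, -0.18 to 0.52 for Timp3 and -0.15 to 0.25 for Timp4. For wild-type KDM5A against empty vector they were -0.17 to 0.38 for Mmp2, -0.072 to 0.57 for Mmp3, -0.17 to 0.074 for Mmp10, -0.19 to 0.31 for Mmp14, -0.40 to 0.43 for Timp3 and -0.044 to 0.025 for Timp4. Between the KDM5A forms they were -0.12 to 0.43 for Mmp2, -0.41 to 0.23 for Mmp3, -0.094 to 0.40 for Mmp14, -0.26 to 0.57 for Timp3 and -0.14 to 0.26 for Timp4. Where leaving out an array reversed no sign, the ranges not given with the results above were 0.050 to 0.26 for Mmp3 and -0.30 to -0.13 for Timp1 with KDM5A-H483A against empty vector, -0.22 to -0.014 for Mmp9 and 0.0054 to 0.11 for Timp1 with wild-type KDM5A against it, and, between the forms, 0.027 to 0.23 for Mmp9, -0.087 to -0.012 for Mmp10, -0.44 to -0.015 for Mmp13, -0.36 to -0.19 for Timp1 and 0.0090 to 0.30 for Timp2. Apart from the alternatives that leave out an array or name another probe set, the cause of a reversal was not tested. Mmp3, Mmp9, Mmp10, Mmp13 and Timp4 lay below the median gene and had no value under the filter on dim genes. No setting for scan date was run.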

Other observations

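Over the 6 arrays, the profiles of the 3 members with the widest range were compared with those of 8850 other genes at or above the median level. Points share arrays and groups, so these correlations are a description. Timp3 was most like Mon2 (Pearson r 0.998), Phf21a (0.989) and Ndrg3 (0.989), and 47 genes reached 0.95. Mmp13 was most like Orc6 (0.998), Rb1 (0.995) and Anln (0.988), with 52 genes at 0.95 or more, at a signal near the bottom of the scale. Mmp3 was most like Cish (0.995), Shisa5 (0.993) and Ifi202b (0.993), with 67 genes at 0.95 or more. Ifi202b stood at 6.43 and 6.09 with KDM5A-H483A, at 6.94 and 5.91 with wild-type KDM5A and at 6.02 and 5.83 with empty vector, highest on the same array as Mmp3.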
